A study of Homo sapiens with 282 samples.

Results

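The 81 genes described here encode nuclear-encoded subunits of the 5 complexes of mitochondrial oxidative phosphorylation, and they were followed in OCI-Ly3 cells after 6, 12 and 24 h of exposure to 14 compounds. OCI-Ly3 is an established human line derived from a large-cell lymphoma of B cells. A gene was a member when its symbol in the platform annotation began with NDUFA, NDUFB, NDUFC, NDUFS or NDUFV and a number, was SDHA, SDHB, SDHC or SDHD, or belonged to the UQCR, COX4 to COX8 or ATP5F, ATP5M and ATP5P families. This rule gave 81 of the 18239 genes measured: 35 of complex I, 3 of complex II, 8 of complex III, 17 of complex IV and 18 of complex V. The rule uses names only and no measured value, but it was chosen with earlier results of these data known. SDHB, UQCRFS1, NDUFA4 and NDUFA4L2 were not analysed here, and neither were the subunits encoded by mitochondrial DNA.

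Complex I takes electrons from NADH, and complex II takes them from succinate. Both pass them through ubiquinone to complex III, cytochrome c and complex IV, where oxygen is reduced. Complexes I, III and IV pump protons across the inner membrane, and complex V, the ATP synthase, uses the return flow to make ATP. Most subunits are encoded in the nucleus, and the nuclear genes are known targets of the transcription factors NRF1 and GABP. In tumours of B cells this pathway is known for supplying ATP and for keeping nucleotide synthesis and the redox state of the cell going.

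Cells were grown in 96-well plates, and RNA was hybridised to HT HG-U219 arrays, 94 for each time and 282 in all. The controls were cells in 1% DMSO, with 8 arrays at each time, and all compounds were compared with them. Cells in medium alone had 2 arrays at each time. Methotrexate at 100 µM had 6, with 2 under each of the replicate numbers 1, 2 and 3, and these were fitted as 6 separate arrays. Each of the other 13 compounds was given at a higher and a lower concentration, with 3 arrays for each concentration and time. These were aclacinomycin A at 0.105 and 0.036 µM, blebbistatin at 100 and 10 µM, camptothecin at 0.31 and 0.01 µM, cycloheximide at 5 and 0.264 µM, doxorubicin at 0.101 and 0.03 µM, and etoposide at 0.812 and 0.811 µM. The remaining ones were geldanamycin at 0.032 and 0.001 µM, H-7 at 20.2 and 12.4 µM, mitomycin C at 2.56 and 0.553 µM, monastrol at 100 and 50 µM, rapamycin at 22 and 13.8 µM, trichostatin A at 0.143 and 0.114 µM, and vincristine at 0.01 and 0.005 µM. All arrays come from 1 cell line, and nothing in the labels places the replicate wells in separate cultures, so p-values measure the spread between these samples, which may be technical. In RNA from whole wells, fewer expressing cells and less RNA per cell cannot be told apart.

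Values are log2 intensities, on which a difference of 1 is a 2-fold change in intensity. In the 6 h DMSO arrays the activated B-cell and plasma-cell regulators IRF4 (13.2) and PRDM1 (10.6) and the B-cell factor PAX5 (7.23) lay above the array's own median in 8 of 8 arrays. The B-cell surface genes CD79A, CD79B, MS4A1 and CD22, with means from 4.64 to 5.02, lay below it in all 8. The B-cell surface part of the label was therefore not borne out by its defining markers, while the transcription factors were present. Of the markers of T cells, myeloid cells, epithelium and striated muscle, CD2 was above the array median in 3 of 8 arrays and the others in 0 of 8. Signal differed between times. An array was called low-signal when the upper quartile of its log2 values was under 8 or its ACTB probe sets differed by over 2 between the 3' and the 5' end. None of the 94 arrays at 6 h, 31 at 12 h and 17 at 24 h were low-signal, among them 4 DMSO arrays at 12 h and 1 at 24 h. The 6 h arrays therefore come first below, and counts at 12 and 24 h are given with and without the low-signal arrays.

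In the 6 h DMSO arrays, 73 of the 81 members lay above the array's own median in 8 of 8 arrays. The other 8 lay below it in all 8: ATP5MGL, COX4I2, COX6A2, COX6B2, COX7A1, COX7B2, COX8C and NDUFA13, with means from 3.77 to 5.30. Several of these are isoforms known from other tissues, COX6A2 and COX7A1 from muscle, COX4I2 from lung, and COX6B2, COX7B2 and COX8C from testis. Changes of probe sets this dim can be understated. NDUFA13 is a subunit of complex I in all tissues, so its probe set is a poor measure of it. SDHA has near-identical pseudogene copies, and UQCRH and UQCRHL are near-identical to each other, so their probe sets may read more than 1 gene.

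Promoter sequences are shown for 6 members with called changes at 6 h under 3 compounds: the 3 with the largest falls under rapamycin, the 1 that rose there, and the members of complex I with the largest changes under trichostatin A and camptothecin. Each is the run of 250 bases before the listed gene start, 5′ to 3′ on the gene's strand, from RefSeq on GRCh38.p14. Capitals mark the matches to any of 6 short motifs, searched on both strands: an ETS core (CCGGAAG), an NRF1 core (GCATGCGC), a ZNF143 core (ACTACAA), a YY1 core (AAGATGGCG), an E-box (CACGTG), and the CCAAT box, whose name is its letters. None of these motifs contains another. ATP5MC1 lies at chr17:48892537-48892786 on the plus strand, NDUFB7 at chr19:14572067-14572316 on the minus strand, NDUFB2 at chr7:140696458-140696707 on the plus strand, COX7A2L at chr2:42361218-42361467 on the minus strand, NDUFS4 at chr5:53560389-53560638 on the plus strand and NDUFV3 at chr21:42893059-42893308 on the plus strand.
ATP5MC1: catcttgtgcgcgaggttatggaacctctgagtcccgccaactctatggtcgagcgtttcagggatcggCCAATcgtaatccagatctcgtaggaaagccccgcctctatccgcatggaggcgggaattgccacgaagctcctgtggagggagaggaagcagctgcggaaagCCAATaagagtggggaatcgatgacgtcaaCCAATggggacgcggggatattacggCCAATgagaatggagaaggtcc
NDUFB7: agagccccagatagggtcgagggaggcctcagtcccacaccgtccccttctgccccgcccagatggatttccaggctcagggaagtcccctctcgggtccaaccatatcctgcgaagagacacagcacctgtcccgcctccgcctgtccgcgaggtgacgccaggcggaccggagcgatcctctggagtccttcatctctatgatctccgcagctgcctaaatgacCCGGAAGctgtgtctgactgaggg
NDUFB2: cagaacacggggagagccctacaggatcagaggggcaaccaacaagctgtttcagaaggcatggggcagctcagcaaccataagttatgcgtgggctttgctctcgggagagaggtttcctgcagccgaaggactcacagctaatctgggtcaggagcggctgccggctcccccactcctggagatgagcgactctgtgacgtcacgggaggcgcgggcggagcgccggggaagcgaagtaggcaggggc
COX7A2L: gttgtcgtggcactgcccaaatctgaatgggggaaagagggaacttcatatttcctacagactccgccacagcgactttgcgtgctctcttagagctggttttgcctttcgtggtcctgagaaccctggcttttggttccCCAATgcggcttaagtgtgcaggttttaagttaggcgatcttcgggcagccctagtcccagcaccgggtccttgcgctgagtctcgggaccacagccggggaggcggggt
NDUFS4: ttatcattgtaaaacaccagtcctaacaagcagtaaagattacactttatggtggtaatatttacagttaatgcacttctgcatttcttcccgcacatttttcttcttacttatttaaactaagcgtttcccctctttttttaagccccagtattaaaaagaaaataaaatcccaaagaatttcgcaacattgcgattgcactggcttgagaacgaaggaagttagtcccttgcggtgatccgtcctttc
NDUFV3: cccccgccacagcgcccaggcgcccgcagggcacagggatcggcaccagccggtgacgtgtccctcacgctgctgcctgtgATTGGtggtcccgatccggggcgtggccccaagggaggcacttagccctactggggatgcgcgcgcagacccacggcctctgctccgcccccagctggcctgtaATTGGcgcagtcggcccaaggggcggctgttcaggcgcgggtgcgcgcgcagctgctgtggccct

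The ATP5MC1 window held 4 CCAAT boxes, the COX7A2L window 1, and the NDUFV3 window 2, read on the opposite strand as attgg. The NDUFB7 window held 1 ETS core, and the NDUFB2 and NDUFS4 windows held no match to these letters. Of the 81 members, 66 had a promoter entry. The ETS core stood in 16 of 66 member windows (24.2%) against 8.82% of the 27303 windows in the table, and the NRF1 core in 11 of 66 (16.7%) against 2.81%. The ZNF143 core stood in 5 (7.58%) against 2.64%, the YY1 core in 1 (1.52%) against 0.641%, the E-box in 6 (9.09%) against 6.49% and the CCAAT box in 23 (34.8%) against 33% of all windows. None of the 6 motifs was found in 22 of the 66. The median GC content was 60.8% in member windows and 58% in all. The 27303 windows were not chosen by gene type or by expression in these cells, so they are not a matched background for the members. These matches are descriptions of letters, not binding sites.

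At 6 h some compounds moved many members and others few, and this split was also that of all genes. Each group was compared with DMSO in 1 limma fit of all 94 arrays and all 18239 genes, with Benjamini-Hochberg adjustment over all genes, and a member was called to rise or fall at an adjusted p under 0.05. With rapamycin at 22 µM 42 members fell and 1 rose, where 26.6% of all genes were called. With H-7 at 20.2 µM 30 rose and 7 fell, against 50.0% of all genes. Trichostatin A at 0.143 µM gave 12 up and 30 down (44.7% of all genes), camptothecin at 0.31 µM 18 up and 12 down (46.9%), cycloheximide at 5 µM 4 up and 23 down (33.4%), and geldanamycin at 0.032 µM 0 up and 23 down (16.5%). Under the other compounds, at their higher or only concentration, at most 7.59% of all genes were called. On the deposited values the share of members called was thus above that of all genes under rapamycin, geldanamycin and trichostatin A. It was about equal under cycloheximide and below under camptothecin and H-7. With each array centred on its median, 78 of 81 members were called under H-7, against 75.2% of all genes. Under cycloheximide 16 were then called, against 32.4% of all genes. The median standard error of a change was 0.054 for members and 0.0988 for all genes. A change of a given size is thus called more often among members. The plot shows the member changes by compound.

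**Figure D1:**
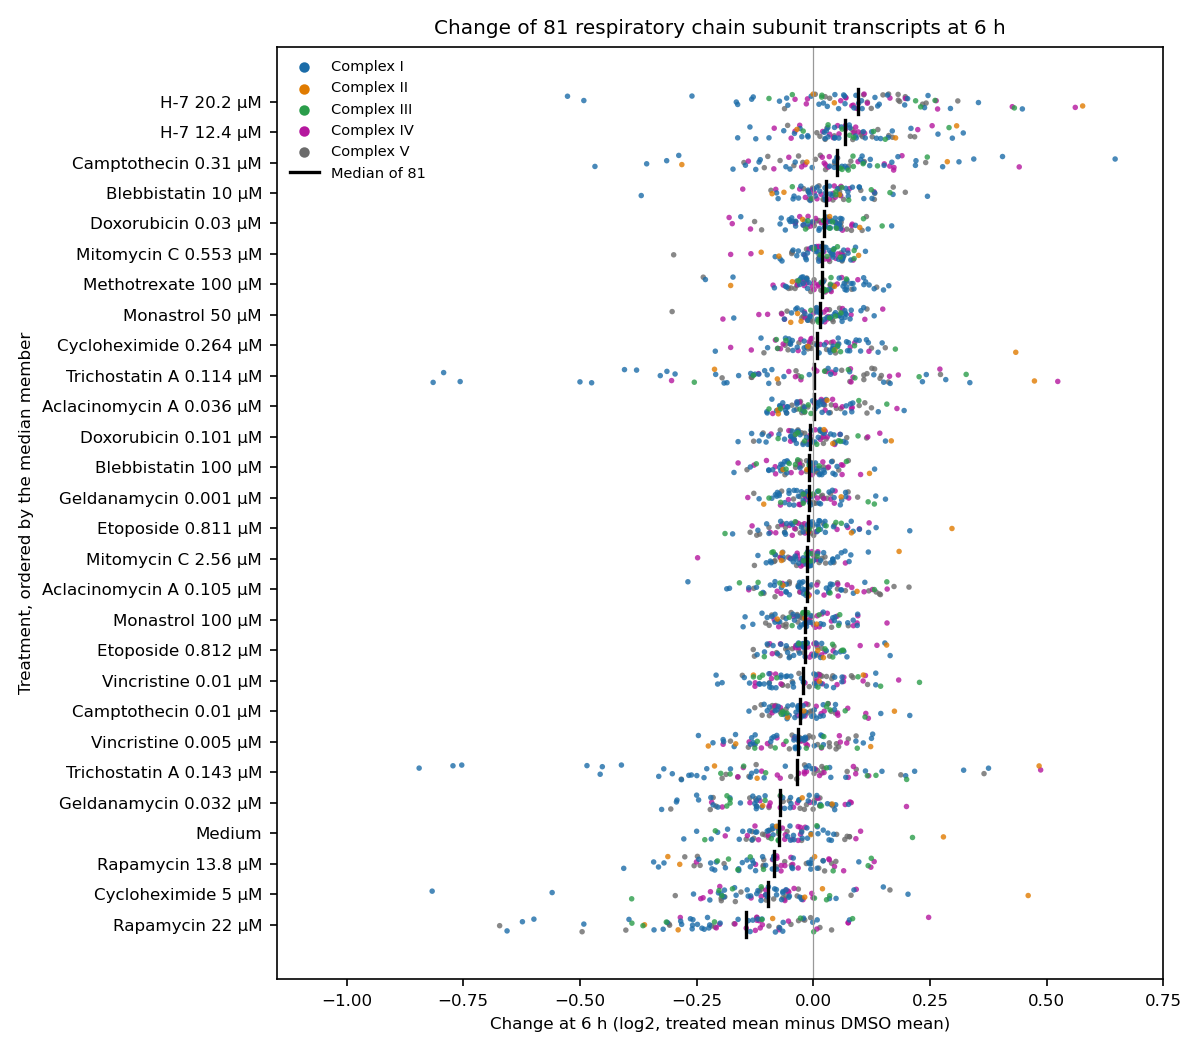
Change against DMSO at 6 h (log2, treated mean minus DMSO mean, horizontal axis) for each treatment (rows, ordered by their median), with 1 point for each of the 81 members, coloured by complex, and a black bar at the median. Under rapamycin at 22 µM the points lie mostly below 0 around a median of -0.14, and under H-7 at 20.2 µM mostly above 0 around a median of 0.10.

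The changes were small. The median change of the members was -0.14 under rapamycin at 22 µM against -0.01 for all genes (-0.22 for the members without replicate 3 of the drug groups), -0.07 under geldanamycin at 0.032 µM against 0.00, and -0.10 under cycloheximide at 5 µM against -0.03. It was 0.10 under H-7 at 20.2 µM against 0.03, and 0.05 under camptothecin at 0.31 µM against 0.06. The standard error of a member's change ranged from 0.027 to 0.131 with a median of 0.054. In simulated data of the same size a change of 0.5 was recovered for 83.6% of genes and one of 0.25 for 17.9%. The changed genes there were drawn from all genes, whose median standard error was 0.0988, and 18039 of 18239 genes were unchanged. These shares are therefore not those of the members. All of these comparisons share the same 8 DMSO arrays. Many members are bright (ATP5PB 13.12, NDUFA1 13.03), where array signals can be compressed.

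**Figure D2:**
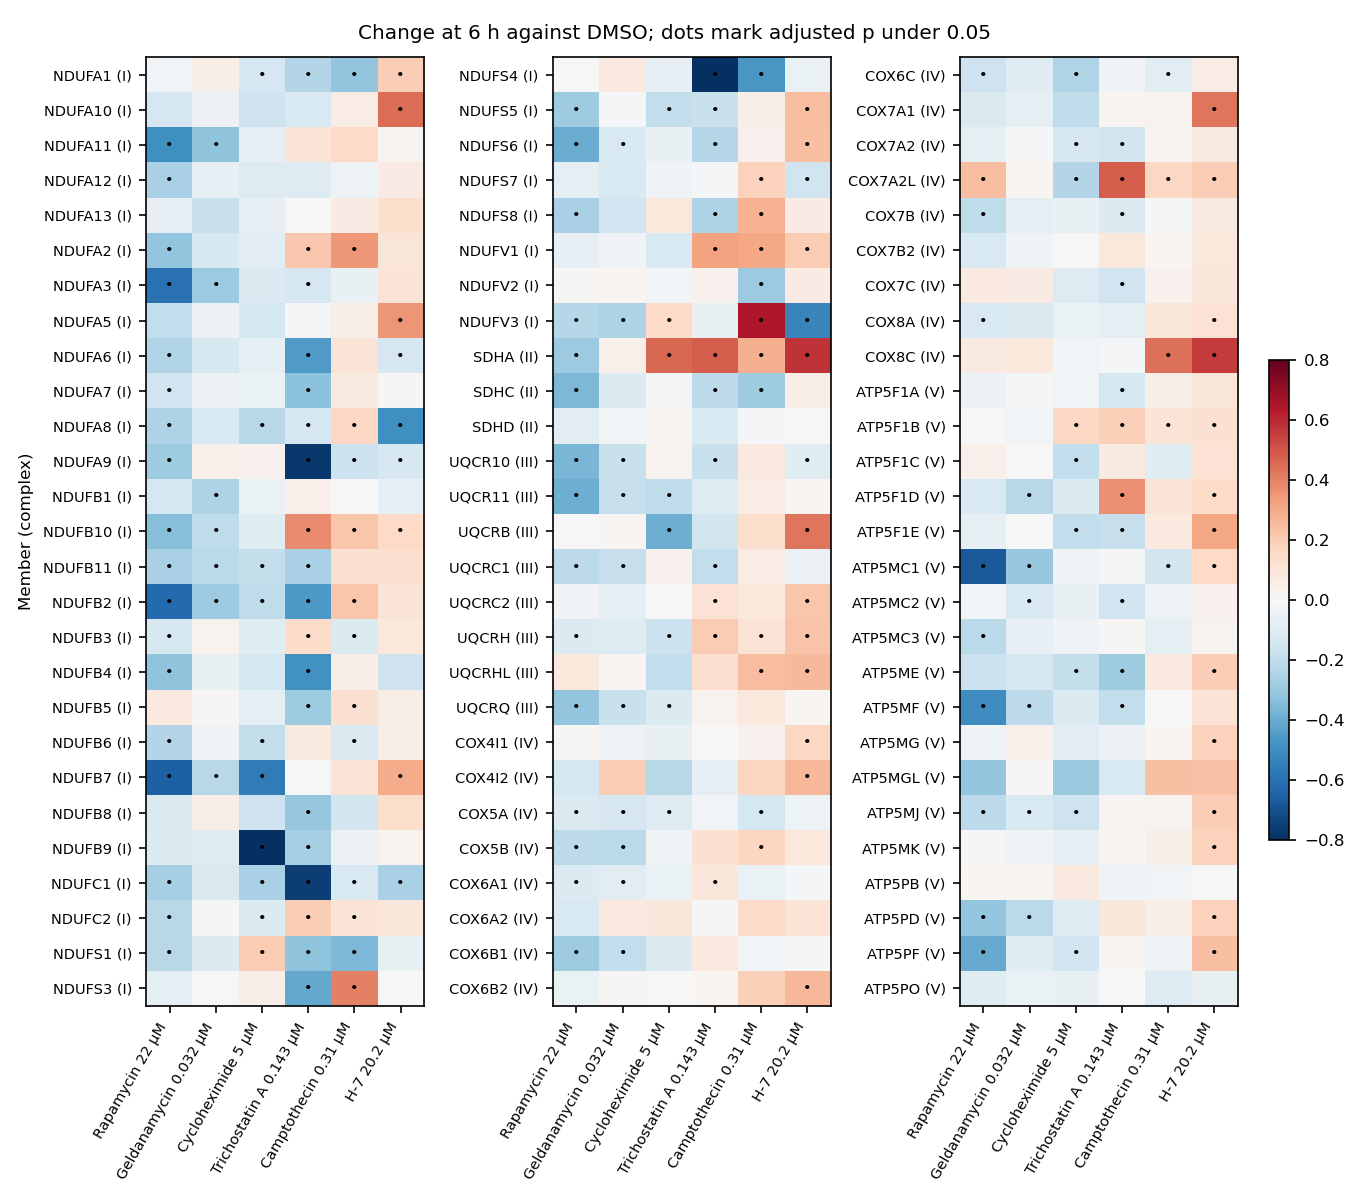
Change against DMSO at 6 h (log2, colour, scale ending at 0.8 on either side) of the 81 members (rows, ordered by complex) under 6 compounds at their higher concentration (columns), with dots at an adjusted p under 0.05. The rapamycin column is mostly negative, down to -0.67, and the trichostatin A and camptothecin columns hold both signs within complex I.

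Rapamycin, an inhibitor of mTOR complex 1, gave falls in all 5 complexes. At 22 µM 22 of 35 members of complex I, 2 of 3 of complex II, 5 of 8 of complex III, 7 of 17 of complex IV and 6 of 18 of complex V fell. The median changes were -0.23, -0.29, -0.16, -0.12 and -0.11. ATP5MC1, one of 3 genes for the c subunit of the ATP synthase rotor, read 9.67, 9.70 and 9.84 at 22 µM, 10.08, 10.15 and 10.17 at 13.8 µM, and 10.32 to 10.51 (median 10.41) in DMSO. The 3 sets of arrays did not overlap. Its change was -0.67 ± 0.055 (SE) at 22 µM (adjusted p = 5.72e-18, limma) and -0.28 ± 0.055 at 13.8 µM (adjusted p = 7.8e-05). The other c-subunit genes gave -0.02 (ATP5MC2, adjusted p = 0.735) and -0.22 (ATP5MC3, adjusted p = 2.29e-05) at 22 µM.

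NDUFB7 and NDUFB2, accessory subunits in the membrane arm of complex I, followed. NDUFB7 read 10.41, 10.19 and 10.39 at 22 µM against 10.91 to 11.05 in DMSO, a change of -0.66 ± 0.065 (adjusted p = 2.38e-14). NDUFB2 read 11.06, 10.98 and 11.04 against 11.53 to 11.72, a change of -0.62 ± 0.049 (adjusted p = 3.69e-19). For both genes every treated array lay under every DMSO array. The 1 member that rose was COX7A2L, which is known to join complexes III and IV in supercomplexes: it read 11.67, 11.63 and 11.78 against 11.41 to 11.51, a change of 0.25 ± 0.043 (adjusted p = 2.38e-06). UQCRC1, a core protein of complex III, fell by 0.21, SDHC, a membrane anchor of complex II, fell by 0.36, and the catalytic β subunit ATP5F1B changed by -0.01 (adjusted p = 0.937). At 13.8 µM 25 members fell and 1 rose (median -0.08), where 17.8% of all genes were called. Without replicate 1 of the drug groups 14 were called there, in place of 26. With each array centred on its median 41 fell and 0 rose at 13.8 µM, where 18.8% of all genes were called.

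**Figure D3:**
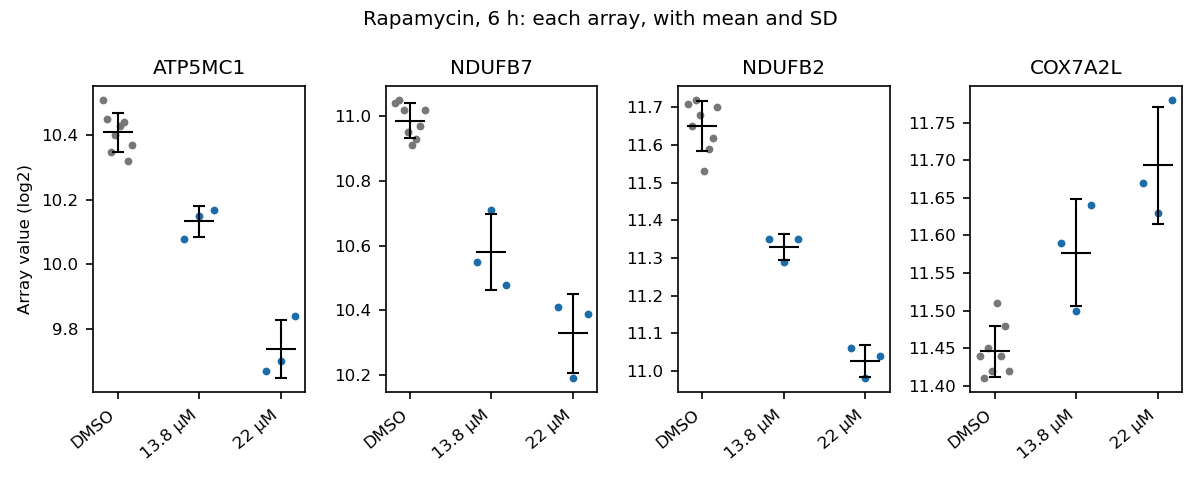
Log2 levels (vertical axis, 1 scale per gene, not starting at 0) of ATP5MC1, NDUFB7, NDUFB2 and COX7A2L in single arrays at 6 h in DMSO (8 arrays) and with rapamycin at 13.8 and 22 µM (3 arrays each), with the mean and SD as bars. At 22 µM the ATP5MC1 arrays lie at 9.67 to 9.84, below the DMSO arrays at 10.32 to 10.51, and the COX7A2L arrays lie above theirs.

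Geldanamycin, which blocks the chaperone HSP90, gave smaller falls. At 0.032 µM 9 members of complex I, 4 of complex III, 4 of complex IV and 6 of complex V fell and none rose. NDUFA11, an accessory subunit of complex I, read 11.23, 11.06 and 11.28 against 11.30 to 11.67, a change of -0.33 ± 0.066 (adjusted p = 9.25e-05). ATP5MC1 read 10.10, 10.02 and 10.19, a change of -0.31 ± 0.055 (adjusted p = 1.12e-05), and NDUFB2 read 11.31, 11.38 and 11.38, a change of -0.29 ± 0.049 (adjusted p = 1.73e-06). None of these treated arrays reached the DMSO range. The count of 23 moved when replicates were left out: it was 15 without replicate 1 of the drug groups and 13 without replicate 2. Each of these fits had 2 arrays at 0.032 µM in place of 3. At 0.001 µM 0 members were called, 3 at an unadjusted p under 0.05, where 0.0822% of all genes were called.

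Cycloheximide, which stops translation elongation, lowered some members strongly and raised a few. At 5 µM 10 members of complex I fell and 2 rose, 4 fell in each of complexes III and IV, 5 fell and 1 rose in complex V, and 1 rose in complex II. NDUFB9, an accessory subunit of complex I, read 11.31, 11.25 and 11.26 against 11.99 to 12.20, a change of -0.82 ± 0.045 (adjusted p = 1.76e-28). NDUFB7 read 10.31, 10.57 and 10.40, a change of -0.56 ± 0.065 (adjusted p = 6.55e-12). Both groups of treated arrays lay below all DMSO arrays. UQCRB, a small subunit of complex III, read 9.04, 8.73 and 9.24 against 9.25 to 9.54, a change of -0.39 ± 0.076 (adjusted p = 1.29e-05), but a dim probe set of the gene changed by 0.88 and the mean of its probe sets was not called.

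SDHA, the flavoprotein of complex II that oxidises succinate, rose with cycloheximide. It read 10.57, 10.77 and 10.75 against 10.08 to 10.32, a change of 0.46 ± 0.070 (adjusted p = 3.56e-08), and another of its 3 probe sets changed by -0.29. ATP5F1B rose by 0.16 ± 0.035 (adjusted p = 5.39e-05) with all 3 treated arrays above DMSO. NDUFS1, the iron-sulphur subunit at the electron entry of complex I, rose by 0.20 ± 0.056 (adjusted p = 0.00229), and its arrays overlapped the DMSO range. At 0.264 µM 3 members rose and 2 fell, where 9.76% of all genes were called. With arrays centred on their own median, 5 rose and 11 fell at 5 µM, in place of 4 and 23, and in complex V 2 rose and 0 fell.

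Trichostatin A, an inhibitor of histone deacetylases, moved members in both directions, with more falls in complex I. At 0.143 µM 19 members of complex I fell and 5 rose, and in complexes II to V 11 fell and 7 rose. NDUFS4, an accessory subunit of the NADH-oxidising arm, read 10.18, 9.89 and 9.98 against 10.80 to 10.96, a change of -0.85 ± 0.045 (adjusted p = 7.68e-30). NDUFA9 read 10.32, 10.29 and 10.13 against 10.84 to 11.11, a change of -0.77 ± 0.053 (adjusted p = 1.67e-23), and NDUFC1 read 10.77, 10.72 and 10.60 against 11.39 to 11.55, a change of -0.75 ± 0.045 (adjusted p = 7.38e-27). NDUFA9 sits near the quinone site and NDUFC1 in the membrane arm, and neither group of treated arrays reached the DMSO range.

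Among the risers under trichostatin A, COX7A2L read 11.98, 11.93 and 11.89, a change of 0.49 ± 0.043 (adjusted p = 2.26e-17). SDHA read 10.70, 10.78 and 10.68, a change of 0.48 ± 0.070 (adjusted p = 3.82e-09), with another of its probe sets at -0.10. NDUFB10, an accessory subunit of complex I, rose by 0.38 ± 0.060 (adjusted p = 6.27e-08). All 3 genes lay above every DMSO array. At 0.114 µM 18 members rose and 24 fell, where 44.3% of all genes were called.

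Camptothecin, which traps topoisomerase I on DNA, also moved members both ways. At 0.31 µM 11 members of complex I rose and 8 fell, and in complexes II to V 7 rose and 4 fell. After quantile normalization again 14 members rose and 14 fell. NDUFV3, an accessory subunit of the NADH-oxidising arm, read 10.93, 11.08 and 11.04 against 10.27 to 10.51, a change of 0.65 ± 0.056 (adjusted p = 6.01e-18), and its 3 probe sets all rose, by 0.64 to 0.77. NDUFS3, a core subunit, read 11.44, 11.45 and 11.54 against 10.99 to 11.14, a change of 0.41 ± 0.054 (adjusted p = 3.45e-10). Both lay above all DMSO arrays. The dim COX8C rose by 0.44 ± 0.105 (adjusted p = 0.000199). NDUFS4 read 10.44, 10.35 and 10.39, a change of -0.47 ± 0.045 (adjusted p = 1.34e-15), and its other probe set, a dim one, changed by -0.06.

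NDUFS1 under camptothecin read 9.09, 9.02 and 9.09 against 9.30 to 9.63, a change of -0.36 ± 0.056 (adjusted p = 5.17e-08), and 1 of its 5 probe sets, a dim one, changed by 0.19. NDUFA1, a small subunit needed for assembly of complex I, read 12.75, 12.75 and 12.64 against 12.87 to 13.09, a change of -0.31 ± 0.045 (adjusted p = 4.67e-09). Neither overlapped DMSO. At 0.01 µM 1 member rose and 0 fell, where 3.65% of all genes were called.

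H-7, an inhibitor of several protein kinases, gave mostly rises on the deposited values. At 20.2 µM 8 members of complex I rose and 6 fell, 1 rose in complex II, 4 rose and 1 fell in complex III, and 7 of complex IV and 10 of complex V rose with 0 falls. The scale bears on this count: the array median over all genes was 6.28 in these arrays and 6.54 in DMSO, and after centring on it 76 members rose and 2 fell, with a median of 0.35. Centring moved all genes alike: 75.2% of them were then called, 58.9% as rises, and their median change was 0.28. At 12.4 µM, with an array median of 6.42, 18 rose and 2 fell (33.5% of all genes called), 55 rose and 0 fell after centring (37.9% of all genes called), and 13 rose and 5 fell after quantile normalization again. Without replicate 1 of the drug groups 10 were called at 12.4 µM, in place of 20.

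SDHA under H-7 read 10.80, 10.90 and 10.74 at 20.2 µM, a change of 0.58 ± 0.070 (adjusted p = 1.22e-11), above all DMSO arrays. Its 3 probe sets all rose, by 0.13 to 0.58. NDUFA10, an accessory subunit of complex I, read 9.69, 9.83 and 9.78 against 9.24 to 9.41, a change of 0.45 ± 0.080 (adjusted p = 1.22e-06). COX8C read 4.92, 4.00 and 4.46, a change of 0.56 ± 0.105, with 1 of the 3 arrays inside the DMSO range of 3.78 to 4.04 and the others above it. NDUFV3 fell: it read 9.74, 9.94 and 9.85, a change of -0.53 ± 0.056 (adjusted p = 8.59e-14), and all 3 of its probe sets were lower, by down to -1.05. NDUFA8 read 10.30, 10.16 and 10.30 against 10.63 to 10.82, a change of -0.49 ± 0.051 (adjusted p = 4.46e-14), with its other, dim probe set at -0.04. NDUFC1 fell by 0.26 ± 0.045 (adjusted p = 6.11e-07). Each of these falls left the treated arrays below all DMSO arrays. After centring the changes were -0.27 for NDUFV3, -0.23 for NDUFA8 and -0.00 for NDUFC1, which was then no longer called.

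**Figure D4:**
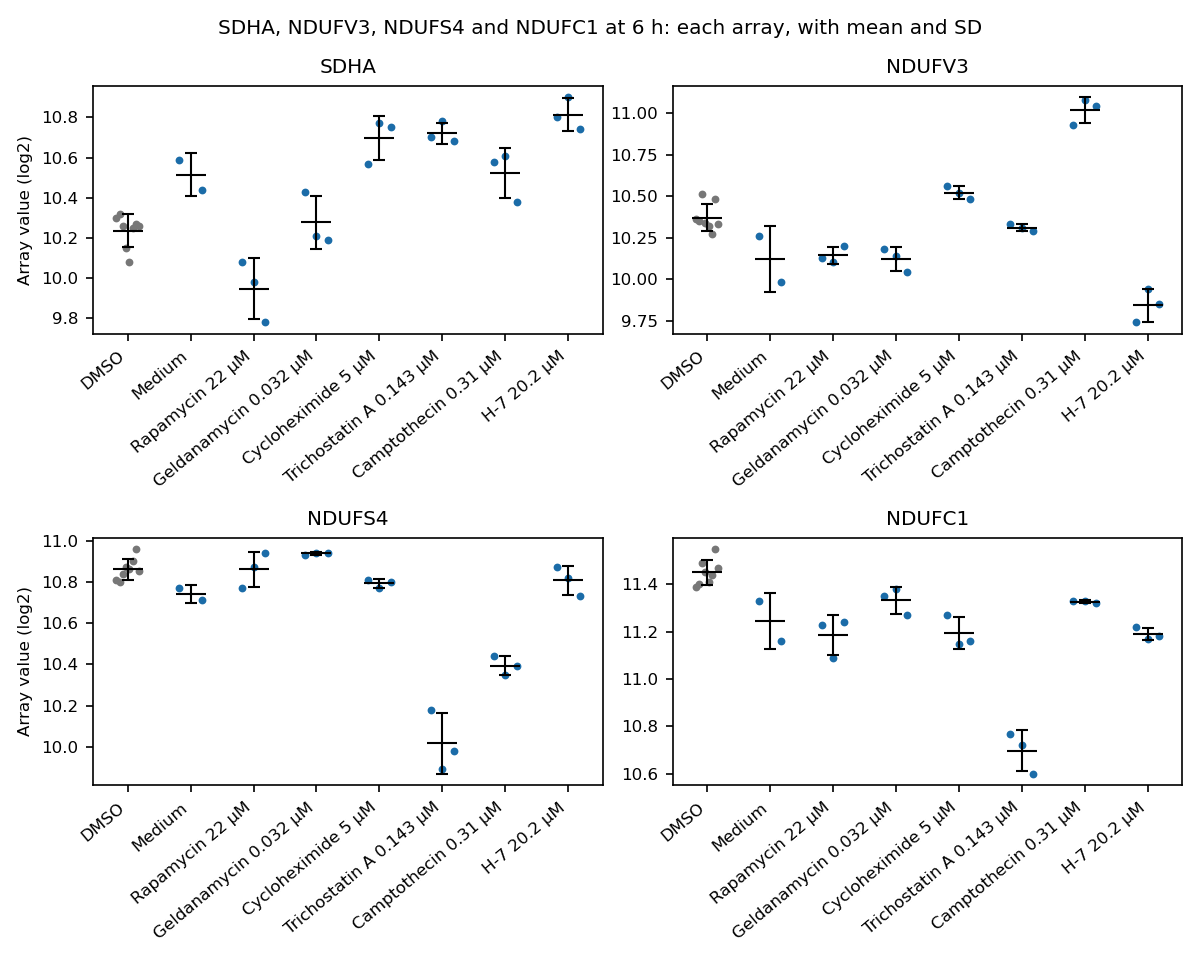
Log2 levels (vertical axis, 1 scale per gene, not starting at 0) of SDHA, NDUFV3, NDUFS4 and NDUFC1 in single arrays at 6 h in DMSO, in medium and under 6 compounds at their higher concentration, with the mean and SD as bars. NDUFV3 sits above DMSO with camptothecin (10.93 to 11.08) and below it with H-7 (9.74 to 9.94), and NDUFS4 is lowest with trichostatin A (9.89 to 10.18).

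Medium without DMSO gave 2 rises and 10 falls from 2 arrays, where 25.5% of all genes were called, and the median member change was -0.07 against -0.01 for all genes. Of these, 6 falls were in complex I. SDHA rose by 0.28 ± 0.081 (adjusted p = 0.00531), with arrays at 10.59 and 10.44. Methotrexate, an antifolate, gave 0 rises and 1 fall at 6 h, where 1.75% of all genes were called. That member was ATP5F1C, the γ subunit of the ATP synthase rotor, at -0.24 ± 0.060 (adjusted p = 0.0286). Its 6 arrays ran from 9.62 to 10.54 with a median of 10.43, they overlapped DMSO (10.46 to 10.64), and without replicate 3 of the drug groups the adjusted p was 0.429. Its probe sets disagreed, with another at 0.10.

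On the deposited values the other compounds moved few members at 6 h. Aclacinomycin A, an anthracycline, at 0.105 µM gave 1 rise and 1 fall with 0.773% of all genes called: COX7C, a small subunit of complex IV, rose by 0.16 ± 0.042 (adjusted p = 0.0417), and UQCRC1 fell by 0.16 ± 0.043. Neither call held when replicate 1 or replicate 2 of the drug groups was left out. At 0.036 µM 0 members and 0% of all genes were called, and 9 members had an unadjusted p under 0.05. The spindle poison vincristine at 0.01 µM gave 1 fall with 0.949% of all genes called: NDUFA8 fell by 0.21 ± 0.051 (adjusted p = 0.0234), its arrays overlapped DMSO, another probe set changed by 0.07, and the call did not hold without replicate 1 or replicate 2 of the drug groups. At 0.005 µM it gave 5 falls with 2.61% called, and 0 without replicate 2 of the drug groups. After centring on the array median 10 members fell at 0.005 µM, with 2.55% of all genes called. Etoposide, a topoisomerase II poison, gave 2 rises at 0.811 µM (6.34% of all genes) and 0 at 0.812 µM (4.57%), with 6 members at an unadjusted p under 0.05 at the latter. These labels differ by under 0.01 µM, and in the fit of all 6 h arrays no member differed between them at the adjusted threshold.

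Blebbistatin, a myosin II inhibitor, gave 0 calls at 100 µM (2.59% of all genes called, 5 members at an unadjusted p under 0.05) and 1 rise at 10 µM (2.63%). After centring on the array median 18 members rose and 0 fell at 10 µM, where 12.7% of all genes were called. Doxorubicin gave 0 at 0.101 µM (7.14%, 6 members unadjusted) and 0 at 0.03 µM (0.548%, 3 unadjusted). Mitomycin C, a DNA crosslinker, gave 0 at 2.56 µM (2.97%, 4 unadjusted) and 0 at 0.553 µM (0.938%, 2 unadjusted). Monastrol, an inhibitor of the mitotic kinesin Eg5, gave 0 at 100 µM (7.59%, 6 unadjusted) and 0 at 50 µM (1.47%, 6 unadjusted). For doxorubicin at 0.101 µM and monastrol at 100 µM, no member was called where over 7% of all genes were. For monastrol 6 members fell after centring, the mean of all probe sets gave 5 calls, a fit of only the 2 groups 1 and the replicate block 2, and for doxorubicin the replicate block gave 1.

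Members differed in how far they moved. Over the 28 comparisons at 6 h the span from a member's lowest to its highest change had a median of 0.457 and exceeded 1 for 1 member, NDUFV3 (1.17, from -0.53 with H-7 to 0.65 with camptothecin). NDUFS4 spanned 0.98, NDUFB7 0.95, NDUFA9 0.91, and NDUFB9 and SDHA 0.87 each. The smallest span, 0.117, was that of ATP5PB, the peripheral stalk subunit b. SDHA, whose probe sets disagreed in sign with cycloheximide at 5 µM and trichostatin A at 0.143 µM, was called in 11 of 28 comparisons. It rose with H-7, trichostatin A and cycloheximide as above, with camptothecin (0.29), and with cycloheximide at 0.264 µM (0.43) and etoposide at 0.811 µM (0.30), and it fell by 0.29 with rapamycin at 22 µM. The medium-alone arrays differed from DMSO in the same direction as those rises. Called in none of the 28 were ATP5MGL, NDUFA13, COX6A2, SDHD, COX7B2, ATP5PO and ATP5PB, of which the first 3 and COX7B2 are dim.

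Read from 1 probe set each, the 3 members of complex II, a complex of 4 proteins, did not move as a unit. The SDHA probe set may also read pseudogene copies, and with trichostatin A another of its 3 probe sets gave -0.10. With rapamycin at 22 µM SDHA and SDHC fell and SDHD gave -0.09 (adjusted p = 0.552). With camptothecin at 0.31 µM SDHA rose by 0.29 while SDHC read 11.40, 11.52 and 11.53 against 11.62 to 11.87 and fell by 0.28 (adjusted p = 8.42e-05), and SDHD gave -0.01. With trichostatin A at 0.143 µM SDHA rose and SDHC fell by 0.21 (adjusted p = 0.00331). The ATP synthase catalytic subunits moved little: ATP5F1A gave between -0.14 and 0.10 over the 6 compounds with many calls at their higher concentration, and ATP5F1B rose with trichostatin A by 0.19 (adjusted p = 2.33e-06).

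Differences between concentrations were tested directly at 6 h, within the same fit, for the 13 compounds with a pair. Under rapamycin 9 members were lower and 0 higher at 22 than at 13.8 µM, where 6.16% of all genes differed, and the ATP5MC1 difference was -0.40 ± 0.067 (adjusted p = 9.55e-06). Under cycloheximide 20 were lower and 0 higher at 5 µM (21.2% of all genes), with NDUFB9 at -0.61 (adjusted p = 3.66e-16). Under geldanamycin 10 were lower and 0 higher at 0.032 µM (9.90%). Under camptothecin 18 were higher and 6 lower at 0.31 µM (39.2%), with NDUFS4 at -0.41 (adjusted p = 4.49e-10) and NDUFV3 at 0.44. Under H-7 4 were higher and 6 lower at 20.2 µM (30.8%), with NDUFV3 at -0.46 (adjusted p = 2.29e-08) and SDHA at 0.27. After quantile normalization again, the camptothecin split was 13 higher and 12 lower. A fit of only the 2 groups compared gave 30 higher and 9 lower with camptothecin, and 0 higher and 5 lower with rapamycin.

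For the other 8 compounds no member differed between concentrations at the adjusted threshold in the fit of all 6 h arrays. At an unadjusted p under 0.05 there were 10 with blebbistatin (12.3% of members against 6.4% of all genes) and 9 with trichostatin A (11.1% against 5.58%). The other counts were under the share of all genes: 7 with vincristine (8.64% against 16.3%), 5 with aclacinomycin A (6.17% against 6.64%), 5 with doxorubicin (6.17% against 9.58%), 3 with mitomycin C (3.7% against 7.43%), 2 with monastrol (2.47% against 7.02%) and 1 with etoposide (1.23% against 5.22%). Member differences ranged from -0.29 to 0.23 with trichostatin A and from -0.23 to 0.30 with blebbistatin. In a fit of only the 2 groups compared, 1 member was called higher with etoposide at 0.812 than at 0.811 µM.

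Other mitochondrial genes were counted in lists from outside the rule. The list of mitochondrial ribosomal proteins is of 77 genes with MRPL or MRPS symbols, among them an antisense RNA, MRPL20-AS1. Under rapamycin at 22 µM, where 26.6% of all genes were called, 42 of these 77 fell and 2 rose (57.1% called, median -0.18), and MRPL20-AS1 was not called. Of 18 complex I assembly genes 9 fell and 0 rose, of 22 complex IV assembly genes 9 fell and 1 rose, and of 23 protein import genes 14 fell and 2 rose, or 50%, 45.5% and 69.6% called. Of 11 tricarboxylic acid cycle genes 4 fell and 0 rose, a share of 36.4%. Of 21 genes for regulators of mitochondrial biogenesis 11 fell and 0 rose (52.4%), among them TWNK, the mitochondrial DNA helicase (-1.01), and TFAM, which packages mitochondrial DNA (-0.59). Of 81 genes matching the names of cytosolic ribosomal proteins, which include pseudogenes, 5 fell and 8 rose (16%), or 6 and 1 after centring.

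Under H-7 at 20.2 µM the directions of the lists depended on the scale. On the deposited values, with 50.0% of all genes called, 52 of the 77 MRPL and MRPS genes fell and 8 rose (77.9%, median -0.29), and after centring, with 75.2% called, 28 fell and 24 rose (67.5%, median -0.03). MRPL20-AS1 was among the falls on both scales. On the deposited values 12 of 18 complex I assembly genes fell and 2 rose (77.8%), with NDUFAF1 at -1.07. Of the biogenesis regulators 10 fell and 7 rose (81%), with MYC at -1.27 and TFB1M, a mitochondrial rRNA methyltransferase, at -1.22, and after centring 6 fell and 10 rose (76.2%). Of 81 cytosolic ribosomal protein genes 28 rose and 4 fell (39.5%), and 77 and 2 after centring (97.5%). Trichostatin A at 0.143 µM gave 49 falls and 11 rises among the MRPL and MRPS genes (77.9% called against 44.7% of all genes, median -0.23). Among the biogenesis regulators it gave 13 falls and 6 rises (90.5%), with GABPA at -1.38 and GABPB1 at -1.70, the subunits of GABP. Camptothecin at 0.31 µM gave 31 rises and 18 falls among the MRPL and MRPS genes (63.6% against 46.9%), with MRPL20-AS1 among the rises. Cycloheximide at 5 µM gave 14 rises and 15 falls there (37.7%, near the 33.4% of all genes), or 18 and 9 after centring, with MRPL20-AS1 among the falls. It gave 45 falls and 1 rise among cytosolic ribosomal proteins (56.8%), or 11 and 1 after centring (14.8%). Among the biogenesis regulators it gave TWNK at -0.86 (adjusted p = 1.11e-12) and NRF1 at 0.80 (adjusted p = 3.43e-12). Geldanamycin at 0.032 µM gave 28 falls and 3 rises among the MRPL and MRPS genes (40.3% against 16.5%).

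At 12 h the result turned on array signal. Geldanamycin at 0.001 µM gave 2 rises and 72 falls over its 3 arrays (median -1.54, 28.0% of all genes called), and 0 calls among members and 0% of all genes over the 2 arrays left without the low-signal one, with 2 members at an unadjusted p under 0.05. Rapamycin at 22 µM gave 1 rise and 1 fall over all arrays (4.96% of all genes) and 2 rises and 34 falls without low-signal arrays (13.2%), with 1 treated array left. At 13.8 µM it gave 0 calls (0.154%, 2 members unadjusted) and 1 rise and 14 falls without them (9.27%). Trichostatin A at 0.143 µM gave 1 rise and 4 falls (10.5%) and 13 rises and 22 falls without them (31.3%). H-7 at 20.2 µM gave 0 calls (3.32%, 1 member unadjusted) and 4 rises and 20 falls without them (25.9%). A fit with 1 treated array takes its spread from the other groups.

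At 24 h low-signal arrays again set the counts, and some compounds with few calls at 6 h had many once such arrays were left out. Methotrexate gave 0 rises and 2 falls over all arrays (4.74% of all genes) and 5 rises and 48 falls without low-signal arrays (35.6%, median -0.16). Doxorubicin at 0.101 µM gave 0 calls (6.07%, 3 members unadjusted) and 7 rises and 34 falls (35.7%, median -0.09). None of the methotrexate and doxorubicin arrays was low-signal, so their added calls come from leaving out other arrays of the fit. Mitomycin C at 2.56 µM gave 2 rises and 7 falls (25.8%) and 3 rises and 43 falls with 2 arrays left (29.8%, median -0.16). The share of members called without low-signal arrays was above that of all genes for each of these 3. It was below for others with few calls at 6 h: 13.6% of members against 23.5% of all genes with doxorubicin at 0.03 µM, 22.2% against 32.8% with monastrol at 100 µM, and 17.3% against 20.8% with etoposide at 0.811 µM. Of the 27 comparisons at 24 h without low-signal arrays, the share of members was above that of all genes in 13 and below it in 9, and no member was called in 5.

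Rapamycin at 22 µM gave 0 calls over all 24 h arrays (2.49% of all genes, 12 members unadjusted) and 3 rises and 42 falls with 2 arrays left (27.7%, median -0.17). At 13.8 µM it gave 0 (0.422%, 30 unadjusted) and 4 rises and 24 falls (17.0%). Cycloheximide at 5 µM gave 9 rises and 3 falls (13.5%) and 40 rises and 5 falls with 1 array left (34.8%, median 0.20). Trichostatin A at 0.143 µM gave 0 rises and 1 fall (5.00%) and 3 rises and 31 falls (31.2%), and the 1 fall was NDUFB8, an accessory subunit of complex I, at -0.78, or -0.50 without low-signal arrays. H-7 at 20.2 µM gave 5 rises and 17 falls (20.7%, median -0.17) and 25 rises and 1 fall with 2 arrays left (20.8%, median 0.10). H-7 at 12.4 µM gave 5 rises and 48 falls (59.1%, median -0.57), and all 3 of its arrays were low-signal.

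**Figure D5:**
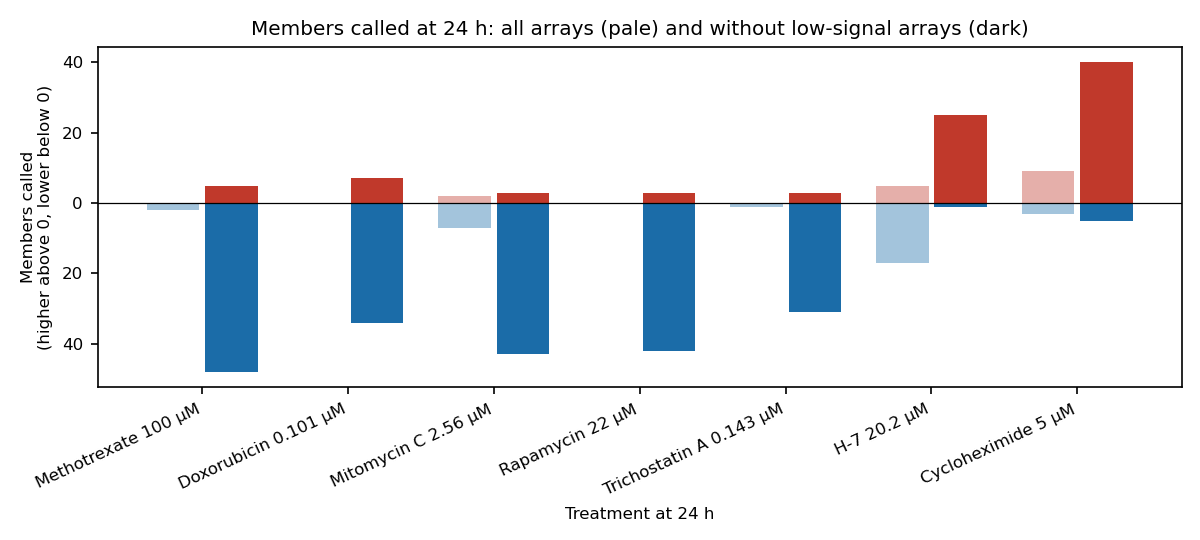
Number of members that rose (red, above 0) or fell (blue, below 0) against DMSO at 24 h at an adjusted p under 0.05 (vertical axis), for 7 treatments, with all arrays (pale) and without low-signal arrays (dark). Without them methotrexate goes from 2 falls to 48, rapamycin at 22 µM from 0 to 42, and H-7 at 20.2 µM from 17 falls to 1.

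Single members at 24 h show what the arrays held. SDHA read 10.00 to 10.54 (median 10.27) in the 7 DMSO arrays that were not low-signal and 10.70 in the other. It read 10.92 to 11.16 in the 6 methotrexate arrays, 10.85 to 10.88 in the 3 doxorubicin arrays at 0.101 µM, and 11.12 and 11.31 in 2 mitomycin C arrays at 2.56 µM, whose low-signal array read 8.47. Cycloheximide at 5 µM read 11.46, and 11.50 and 11.62 in its 2 low-signal arrays. Apart from the mitomycin C array at 8.47, all of these lay above every DMSO array. Without low-signal arrays the changes were 0.73 ± 0.065 (methotrexate), 0.58 ± 0.081 (doxorubicin), 0.93 ± 0.094 (mitomycin C) and 1.17 ± 0.125 (cycloheximide), with adjusted p at most 8.08e-09, and with rapamycin at 22 µM SDHA fell by 0.45 ± 0.094. Over all arrays the cycloheximide change was 1.19 ± 0.33, and the 3 SDHA probe sets all rose, by 0.24 to 1.19.

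ATP5MC1 read 10.36 to 10.70 in the same 7 DMSO arrays at 24 h and 10.22 in the low-signal one. It read 9.99 to 10.15 with methotrexate, 10.06 and 10.14 with mitomycin C, and 9.92 and 10.04 with rapamycin at 22 µM, whose low-signal array read 10.18. Without low-signal arrays it fell by 0.52 ± 0.055 (methotrexate), 0.50 ± 0.080 (mitomycin C) and 0.62 ± 0.080 (rapamycin). COX7A2L read 12.03, 12.05 and, in the low-signal array, 12.09 with rapamycin against 11.25 to 11.51 in all 8 DMSO arrays, a change of 0.61 ± 0.058 without low-signal arrays (adjusted p = 8.36e-14). NDUFB9 read 11.44 with cycloheximide, and 10.72 and 11.41 in the low-signal arrays, against 11.87 to 12.14 in all DMSO arrays. Another 2 of its 4 probe sets were lower too, and the dim one changed by 1.06 over all arrays. With rapamycin at 22 µM NDUFB9 read 12.00 and 12.07, within the DMSO range. The direction at 24 h was that of 6 h for SDHA, ATP5MC1 and COX7A2L under rapamycin and for SDHA and NDUFB9 under cycloheximide. ATP5MC1 under cycloheximide read 10.81, and 10.65 and 10.70 in the low-signal arrays, where at 6 h its mean was 10.38 against 10.41 in DMSO.

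Over all 24 h arrays, methotrexate lowered NDUFA3, an accessory subunit of complex I, to 11.61 to 11.80 against 12.02 to 12.22 in DMSO, a change of -0.43 ± 0.122 (adjusted p = 0.0213). Of its 4 probe sets, the other bright ones gave -0.39 and -0.38, and a dim one -0.00. NDUFA1 read 12.69 to 12.78 against 13.03 to 13.21, a change of -0.36 ± 0.085 (adjusted p = 0.00289). The groups did not overlap for either gene, and without low-signal arrays the changes were -0.42 and -0.36.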

How the data were processed

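Expression in OCI-Ly3 cells was read on 282 arrays. The authors deposited log2 values made with RMA, per the submitters' processing notes, and the RMA version is not given in the sources used here. Of 49386 probe sets, 45259 carried 1 gene symbol in the platform annotation, giving 18239 genes. A gene was read from its probe set of highest mean over the 282 arrays. Each time was fitted with limma 3.58.1 (R 4.3.3, lmFit and eBayes with a mean-variance trend), with a mean per group and Benjamini-Hochberg adjustment over all genes. Genes near background stayed in, and the number of arrays limits the precision. Changes are treated minus DMSO, given with the standard error of the fit. The difference between 24 and 6 h was tested in 1 fit of all arrays. No arrays were identical. Replicate numbers did not pair the samples, since deviations from group means of arrays with 1 number had a median correlation of -0.000295 at 6 h. The members and lists were chosen with earlier results of these data known. The 3 largest falls and rises among called members were named per comparison, or fewer where fewer were called, along with members set by role. Calls at 12 and 24 h that rest on low-signal arrays are given as counts, and single ones where a value is needed. The fit was tested on simulated data before use. Left out were 3 probe sets whose names meet the rule but carry several symbols.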

Additional observations from a re-analysis of the deposited data

Results flagged for a closer look

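Of 41 groups of arrays tested for a single distant array among the named members, 4 had one, and chance gives about 1 in 20. NDUFA1 in DMSO at 6 h had a lowest array of 12.87, below the other 7. ATP5F1C with methotrexate at 6 h had a lowest array of 9.62, with the next at 10.4, and this gene is the 1 call of that comparison. Without replicate 3 of the drug groups, which leaves out more than 1 methotrexate array, the change was -0.095 (limma, adjusted p = 0.429). COX6A2 in DMSO at 24 h had a highest array of 5.74, with the next at 5.21, and ATP5MGL in DMSO at 24 h one of 5.07, with the next at 4.57. Both are dim probe sets.

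Of 48 differences between the 24 h change and the 6 h change, 6 passed an adjusted p of 0.05 in the limma fit of all arrays. These 48 were chosen for a large change at 6 or 24 h, so their share cannot be read against all genes. The 6 were 4 of the 10 tested with H-7 at 20.2 µM, where 12.7% of all genes passed, and 2 of the 4 tested with mitomycin C at 2.56 µM, where 12.8% did. With H-7 at 20.2 µM they were NDUFA10 at -1.967 ± 0.619 (SE, adjusted p = 0.0214), NDUFS7 at -1.941 ± 0.512 (adjusted p = 0.00511), ATP5MC2 at -1.964 ± 0.54 (adjusted p = 0.00727) and COX6A2 at 0.899 ± 0.259 (adjusted p = 0.0106). The 24 h arrays read 11.02, 10.63 and 4.85 for NDUFS7, an iron-sulphur core subunit of complex I, and 12.71, 12.53 and 6.66 for ATP5MC2, where the lowest value in each is the low-signal array. Without low-signal arrays the differences were 0.01 for NDUFS7 (adjusted p = 0.941), 0.00 for ATP5MC2 (adjusted p = 0.985), -0.54 for NDUFA10 (adjusted p = 0.014) and 0.42 for COX6A2 (adjusted p = 0.0706). With mitomycin C at 2.56 µM they were NDUFA5, an accessory subunit of complex I, at -1.69 ± 0.44 (adjusted p = 0.00582) and SDHD at -0.849 ± 0.263 (adjusted p = 0.0215). NDUFA5 read 9.15, 4.97 and 9.45 at 24 h, and the SDHD difference without low-signal arrays was 0.03 (adjusted p = 0.935).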

How the results depend on the processing

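At 6 h the number of called members stayed within 1.5 times its main value under every alternative run for rapamycin at 22 µM, camptothecin at 0.31 µM and trichostatin A at 0.143 µM. Leaving out single replicates of the drug groups or of DMSO gave 35 to 47 called members with rapamycin (43 with all arrays), 20 to 31 with camptothecin (30), 36 to 43 with trichostatin A (42), 26 to 39 with H-7 at 20.2 µM (37), 19 to 28 with cycloheximide at 5 µM (27) and 13 to 24 with geldanamycin at 0.032 µM (23). Such omissions gave 0 to 7 with aclacinomycin A at 0.105 µM (2), 0 to 4 with methotrexate (1), 0 to 6 with vincristine at 0.01 µM (1), and 79 to 200 calls summed over the treated groups at 12 h (85). They also gave changes of -2.97 to 0.0575 for ATP5MC2 with H-7 at 24 h (-1.93) and -0.0438 to 1.48 for COX4I2 with mitomycin C at 24 h (0.96).

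At 6 h and the higher concentrations, centring each array on its median gave 78 called members with H-7 at 20.2 µM and 16 with cycloheximide. It gave 6 with monastrol at 100 µM and 1 with etoposide at 0.812 µM. Quantile normalization again gave 1 with aclacinomycin A, 2 with methotrexate and 2 with vincristine. Leaving out the lowest 40% of genes gave 2 with methotrexate. The mean of all probe sets gave 1 with aclacinomycin A, 1 with etoposide, 5 with monastrol and 0 with vincristine. A fit of only the 2 groups compared gave 0 with aclacinomycin A, methotrexate and vincristine, 1 with monastrol, and 149 calls at 12 h and 284 at 24 h. The bioB hybridisation control as a covariate gave 0 with aclacinomycin A and vincristine, 1 with blebbistatin at 100 µM, etoposide and mitomycin C at 2.56 µM, and 49 calls at 24 h. Among the lower concentrations at 6 h, centring gave 41 called members with rapamycin at 13.8 µM in place of 26, and 55 with H-7 at 12.4 µM in place of 20. It gave 18 with blebbistatin at 10 µM in place of 1, and 10 with vincristine at 0.005 µM in place of 5.

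Replicate numbers did not pair the arrays (same-number correlations were over 0.1 in 91 of 975 pairs at 6 h). With the number as a replicate block 0 members were called with aclacinomycin A and methotrexate, 1 with doxorubicin at 0.101 µM, 2 with monastrol and 3 with vincristine, and 61 at 24 h over all treated groups in place of 100.

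Without low-signal arrays 205 calls were made at 12 h and 490 at 24 h, in place of 85 and 100. The sums cover different sets of groups, since groups with only low-signal arrays dropped out. Over all arrays, geldanamycin at 0.001 µM gave 74 of the 85 calls, and H-7 at 12.4 µM 53 of the 100. ATP5MC2 with H-7 at 24 h changed by 0.0371 without low-signal arrays. The difference between the 24 h and the 6 h change turned sign for NDUFB9 (0.22) and NDUFB7 (0.45) with cycloheximide, for NDUFV3 (0.736), NDUFC1 (0.35), COX8C (-0.173), NDUFS7 (0.0142), ATP5MC2 (0.00214) and ATP5MGL (-0.217) with H-7, and for SDHD with mitomycin C (0.0264). The cause of these moves was not tested, beyond the arrays left out. H-7 at 12.4 µM and 24 h could not be fitted without low-signal arrays, since none of its arrays was left. The same held at 12 h for aclacinomycin A at 0.105 µM, blebbistatin at 100 and 10 µM, and doxorubicin at 0.101 µM.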
